A study of Mus musculus with 48 samples.

Results

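The livers described here were taken at zeitgeber time 6 (ZT6, hours counted from lights on), in the middle of the light phase, from germ-free (GF) and conventionally raised (convR) mice. The 8 libraries of that time were taken from both deposited tables of raw exon counts, 4 GF against 4 convR, out of 48 libraries in all; the female and the male table each gave 2 GF and 2 convR libraries. All mice were labelled C57BL/6j, 15 to 16 weeks old and fed ad libitum, and the groups differed in gut microbiome status and sex. GF mice were reared without microbes, and convR mice carried a conventional gut flora. Liver RNA of the same 4 groups was also measured at ZT2, ZT10, ZT14, ZT18 and ZT22, with 2 libraries per combination of sex, status and time. The questions were which transcripts differed between GF and convR livers at ZT6, which of these differences were specific to or largest at that time against the other 5 times, and whether they were shared by the sexes. Sex coincides with the count table, so a difference between the sexes and a difference between the tables cannot be told apart. Libraries of the same sex, status and time are numbered 1 and 2, and no label says that they come from separate animals, so p-values measure the spread between these samples, which may be technical.

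The liver clock is a transcription feedback loop. ARNTL (BMAL1) pairs with CLOCK or NPAS2 and binds E-boxes to drive the Per, Cry, Nr1d and Dbp genes. PER and CRY proteins then inhibit that pair, while REV-ERB proteins (Nr1d1, Nr1d2) repress and ROR proteins activate Arntl and Nfil3 through a shared response element. DBP, TEF and HLF activate and NFIL3 represses genes with D-boxes, and through these factors the clock times much of hepatic metabolism. Fatty acid and cholesterol synthesis in liver follow feeding, the clock and the sterol-sensing SREBP proteins, which INSIG proteins hold back. In GF mice bile acids are not modified by bacteria, and enzymes of drug and bile acid metabolism are known to differ from those of colonised mice.

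Total counts of the 8 libraries ran from 29769441 to 45032620, and the 10 most abundant genes held 16.9% to 25.5% of them. Levels below are CPM of a library's total counts. Hepatocyte markers, 11 genes with Alb and Apoa1 among them, summed to 110900 to 138700 CPM in convR and 128700 to 165600 CPM in GF libraries. The markers of Kupffer cells summed to 576 to 687 CPM in convR libraries. GF males lay below that range, at 338 and 447 CPM, and GF females above it, at 901 and 827 CPM. Those of sinusoidal endothelium summed to 569 to 710 CPM in convR and 541 to 685 CPM in GF libraries, and those of stellate cells to 488 to 657 and 440 to 600 CPM. Some libraries stood apart. GF male 2 had the lowest total and held 49430 CPM of Mir5105, a microRNA gene, against 5085 to 12210 CPM in the other 7 libraries. Lars2 was at 3428 CPM in GF female 1 and 2851 CPM in GF male 2, against 14.3 to 250 CPM in the rest. The chi-square per gene between the 2 libraries of a group was 297 in GF males and 143 in GF females. In convR males and females it was 42.7 and 61.6. Whether library quality differed was not tested. GF female 2 held 173 CPM of Nnt, a mitochondrial transhydrogenase, against 44.4 to 75.3 CPM in the other libraries. Nnt is known as a gene that is partly deleted in C57BL/6J mice, so its level bears on the strain label; GF female 2 was as high at ZT2 (186 CPM) and ZT10 (175 CPM), and whether the strain of these 3 libraries differed was not tested. Counts without GF female 2, or without all 3, are given with the main results. In bulk liver, fewer cells of a type and less RNA per cell cannot be told apart.

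Over the 19 measured genes of a list of core clock and clock output genes, the ZT6 GF libraries did not lie nearest to the convR libraries of the same time. The root mean square distance of the mean log2(CPM + 1) values of GF females at ZT6 was 0.896 to convR females at ZT2, 1.39 to those at ZT22 and 1.96 to those at ZT6. For GF males at ZT6 it was 0.661 to convR males at ZT10, 1.21 to those at ZT14, 1.38 to those at ZT6 and 1.61 to those at ZT2. At the other 5 times the distance between GF and convR at the same time ran from 0.273 to 0.848 in females and from 0.314 to 0.932 in males. The convR libraries of ZT6 were themselves placed differently in the sexes, those of females at 1.11 from convR females at ZT10 and 2.10 from those at ZT2, and those of males at 1.64 and 0.741 from convR males at these times. By these clock genes the GF females of ZT6 were thus nearest to an earlier, and the GF males to a later, convR time of their own sex than the label. The nearest convR time also differed from the label for GF females at ZT10, with 0.61 to ZT6 and 0.848 to ZT10, for GF females at ZT14, with 0.542 to ZT10 and 0.596 to ZT14, and for GF males at ZT2, with 0.764 to ZT22 and 0.8 to ZT2. Whether GF or convR libraries, or both, were displaced, and whether the hour of sampling, the phase of the clock or the labels differed, was not tested, and each comparison below rests on these libraries.

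Clock transcripts differed between GF and convR livers at ZT6, in opposite directions in females and males. In GF females the E-box and D-box driven genes Dbp, Per3, Wee1 and Tef were lower and Arntl was higher than in convR females; in GF males Dbp, Per3, Wee1 and Tef were higher and Arntl was lower than in convR males. The female minus male difference of the germ-free effect, fitted in all 48 libraries with the edgeR quasi-likelihood test, passed an adjusted p of 0.05 for 723 of 17867 genes (4.05%), 336 higher in females (1.88%) and 387 lower (2.17%). Of the 19 clock genes 14 passed, 5 higher and 9 lower in females. In all 14 the GF effect had opposite signs in the sexes. The 14 were called on this difference, a choice that favours opposite signs. The share of opposite signs over all genes tested was not computed. Leaving out each of the 8 ZT6 libraries in turn gave 13 to 15 clock genes, and a fit of the 8 ZT6 libraries alone gave 8. The median difference of the list was -1.46 on the log2 scale, against -0.0018 over all genes tested.

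Dbp (chr7:45705088-45710203), a D-box activator and direct E-box target, had the largest difference of the list. It measured 97.9 and 126 CPM in convR females, 4.57 and 2.08 CPM in GF females, 38.7 and 30.9 CPM in convR males and 149 and 179 CPM in GF males. The GF libraries were below convR in females and above convR in males, with no overlap within either sex. The GF effect of Dbp was -5.06 ± 0.50 (log2, SE, n = 2 against 2) in females and 2.33 ± 0.43 in males, a difference of -7.38 ± 0.66 (edgeR adjusted p = 2.04e-08). Per3 (chr4:151003652-151044665), a period gene, measured 44.6 and 68.8 CPM in convR females, 2.53 and 1.82 CPM in GF females, 16.2 and 11.7 CPM in convR males and 42.8 and 34.4 CPM in GF males. Its groups likewise did not overlap within a sex, and its difference was -6.25 ± 0.55 (edgeR adjusted p = 2.04e-08). Wee1 (chr7:110122046-110143286), a kinase that holds back mitotic entry and a known clock output in liver, measured 5.88 and 6.08 CPM in convR females, 0.579 and 0.794 CPM in GF females, 2.32 and 2.02 CPM in convR males and 7.86 and 5.64 CPM in GF males. That was the lowest adjusted p of all genes, with a difference of -4.83 ± 0.41 (edgeR adjusted p = 1.67e-08).

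Tef (chr15:81802421-81826863), a relative of Dbp, measured 209 and 195 CPM in convR females and 56.9 and 41.7 CPM in GF females, and 116 and 96.7 CPM in convR males and 247 and 191 CPM in GF males. The GF females were the lowest of the 8 libraries, and the difference was -3.13 ± 0.34 (edgeR adjusted p = 1.26e-06). Arntl (chr7:113207465-113314126), the positive limb of the loop, went the other way, with 6.58 and 9.84 CPM in convR females, 32.2 and 35.9 CPM in GF females, 16.6 and 22.6 CPM in convR males and 2.49 and 3.09 CPM in GF males. Its GF effect was 2.07 ± 0.30 in females and -2.74 ± 0.32 in males, a difference of 4.81 ± 0.44 (edgeR adjusted p = 3.02e-08). Its partners Npas2 and Clock were also higher in females, by 4.29 and 1.44, as were the repressors Cry1 and Nfil3, by 2.07 and 2.72. Of the repressors Per2, Cry2, Bhlhe40 and Bhlhe41 the differences were -3.41, -1.24, -4.16 and -5.31, and that of Usp2, a rhythmic deubiquitinase, was -4.93. Nr1d2, a REV-ERB, passed with -1.89 (edgeR adjusted p = 0.0283) but lost the call in 7 of the 8 fits that left out a library, and it was the 1 clock gene of the 14 that did not keep it throughout. Per1, Nr1d1, Rora and Hlf were among those that did not pass.

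**Figure D1:**
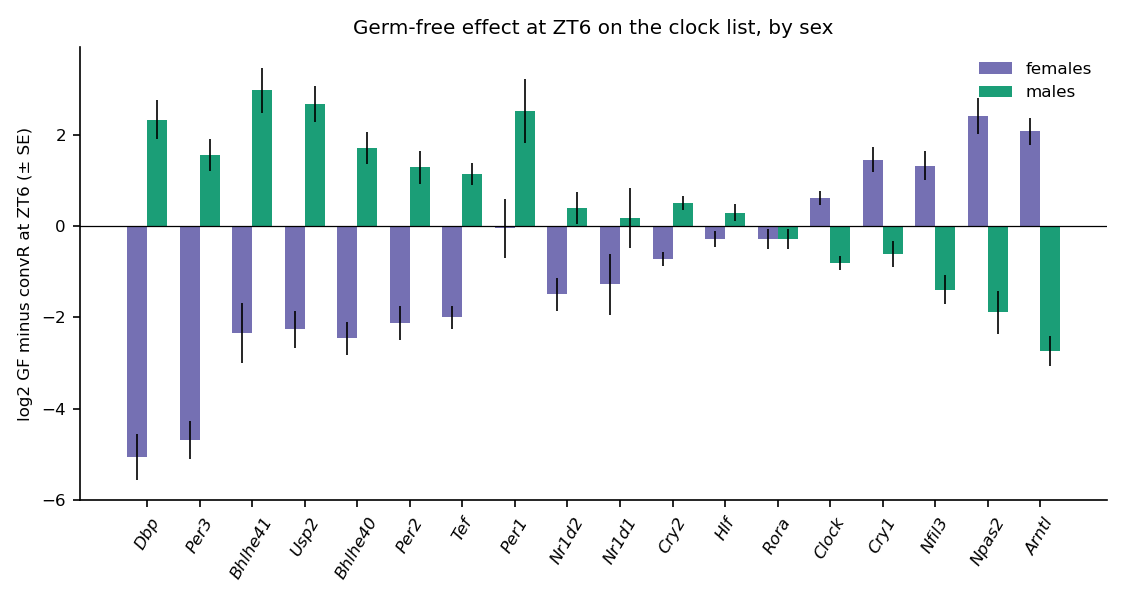
Germ-free effect at ZT6 (log2 GF minus convR, 48-library fit) for genes of the clock list, in females and males; bars are estimates and lines 1 SE. The 14 genes called on the difference between the sexes point in opposite directions, which that choice favours. They run from Dbp at -5.06 in females and 2.33 in males to Arntl at 2.07 and -2.74.

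Over the day the ZT6 values lay on the flanks of strong rhythms. In convR females the mean of Dbp was 1.27 CPM at ZT2 and 213 CPM at ZT10, and in GF females it was 1.1 and 150 CPM, so the groups were closer on either side of ZT6 than at it. In males the means were 11.1 and 126 CPM in convR and 7.1 and 180 CPM in GF at the same times. At ZT6 the GF females lay nearer to their ZT2 mean than to their ZT10 mean, and the GF males lay near their ZT10 mean.

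**Figure D2:**
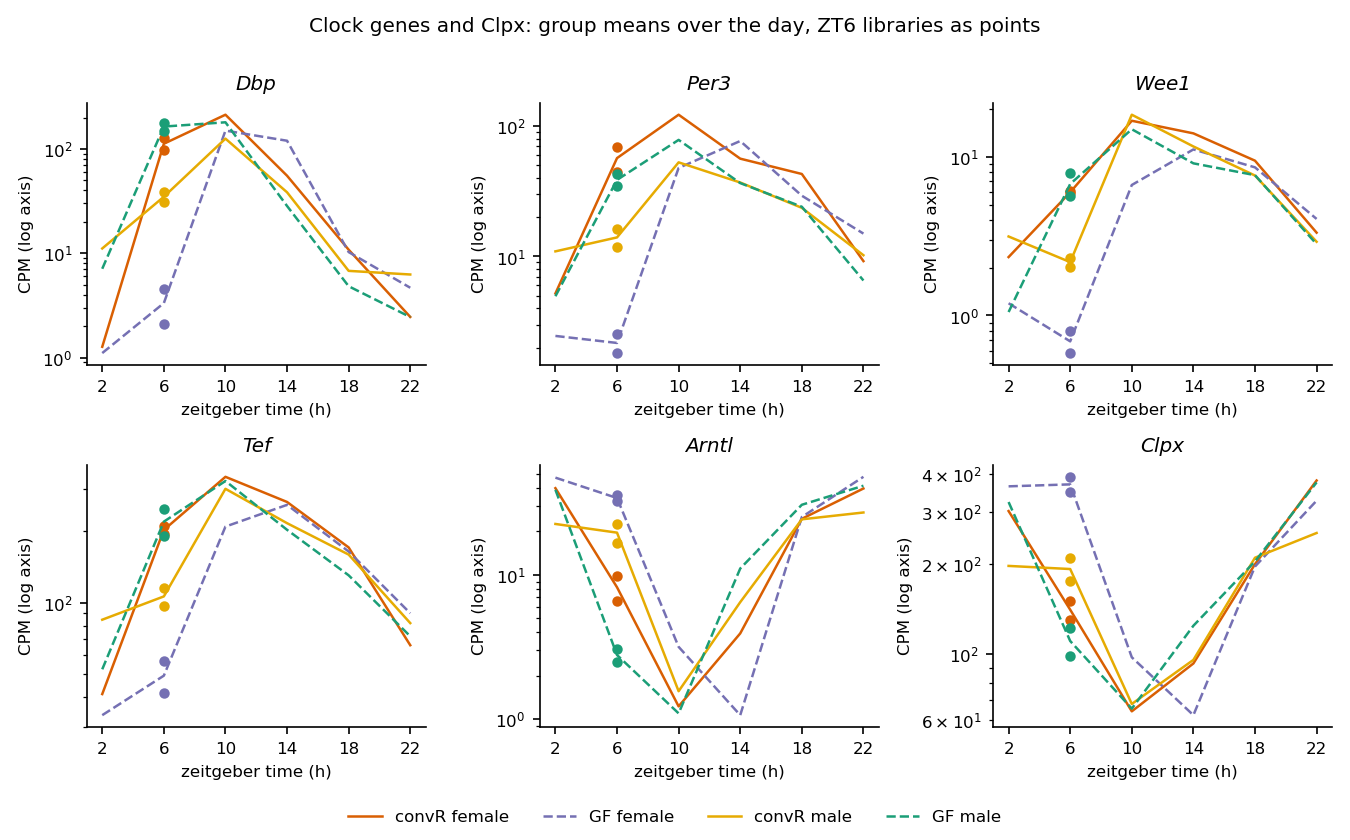
Mean CPM (log axis) of Dbp, Per3, Wee1, Tef, Arntl and Clpx at the 6 zeitgeber times for the 4 groups; lines join the means of 2 libraries and the points at ZT6 are single libraries. At ZT6 the GF female points of Dbp (4.57 and 2.08 CPM) sit nearer to the GF female mean at ZT2 than to that at ZT10, and the GF male points (149 and 179 CPM) sit near the GF male mean at ZT10.

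The promoters of 4 of these genes are shown because they hold the elements through which the loop is known to act. The sequences are the 250 bases before the annotated start of the transcript in RefSeq (GRCm38.p6), on the strand of the gene, and capitals mark the motif. The Per3 window (chr4:151044666-151044915, minus strand) held 2 D-boxes, at -205 and -158. The second promoter of Tef (chr15:81811164-81811413, plus strand) held an E-box at -138 and that of Cry1 (chr10:85185055-85185304, minus strand) one at -60. The Nfil3 window (chr13:52981040-52981289, minus strand) held the core of the ROR and REV-ERB site on the other strand at -12. Other windows with a motif are not shown. An E-box lay in that of Bhlhe41 at -153 and in the first promoter of Tef at -127. The first promoter of Per1 held an E-box at -166 and a D-box at -24, and that of Hlf a cyclic AMP element at -9. The windows of Dbp, Arntl, Clock, Npas2, Cry2, Nr1d1, Nr1d2, Rora and Usp2 held none of the motifs searched and are not shown.
Per3: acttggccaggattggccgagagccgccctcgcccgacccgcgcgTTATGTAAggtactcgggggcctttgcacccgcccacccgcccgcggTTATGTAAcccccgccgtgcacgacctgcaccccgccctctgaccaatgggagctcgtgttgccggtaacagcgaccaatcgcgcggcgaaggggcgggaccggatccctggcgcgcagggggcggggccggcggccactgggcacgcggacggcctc
Tef: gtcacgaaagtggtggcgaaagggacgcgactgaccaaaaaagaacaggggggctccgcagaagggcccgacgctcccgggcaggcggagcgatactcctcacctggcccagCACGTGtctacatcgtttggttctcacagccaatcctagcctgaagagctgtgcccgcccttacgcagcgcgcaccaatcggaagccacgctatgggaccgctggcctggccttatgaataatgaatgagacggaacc
Cry1: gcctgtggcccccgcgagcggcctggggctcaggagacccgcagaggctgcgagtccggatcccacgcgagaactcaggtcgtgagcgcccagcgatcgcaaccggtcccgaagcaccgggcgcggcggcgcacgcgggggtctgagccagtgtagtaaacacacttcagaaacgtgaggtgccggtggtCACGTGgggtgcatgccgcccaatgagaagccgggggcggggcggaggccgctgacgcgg
Nfil3: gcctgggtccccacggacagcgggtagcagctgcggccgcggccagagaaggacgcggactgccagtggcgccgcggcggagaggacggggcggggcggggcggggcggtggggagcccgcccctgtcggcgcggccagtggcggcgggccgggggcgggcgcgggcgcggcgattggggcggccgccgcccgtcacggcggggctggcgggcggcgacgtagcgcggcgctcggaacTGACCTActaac
Motifs were searched on both strands from 250 bases before to 50 after each start. In the 22 promoters of the 17 clock genes matched, the E-box CACGTG was in 6 (27.3%, against 7.15% of all 32851 promoters), the D-box TTATGTAA, TTACGTAA or TTATGCAA in 2 (9.09% against 1.78%) and the ROR core TAGGTCA in 2 (9.09% against 2.61%). Among promoters of tested genes the E-box was in 9.34% (10655 of 17472 genes matched). It was in 14.3% for genes whose GF effect was lower in females (262 of 387 matched) and in 6.23% for those higher in females (243 of 335 matched). For the genes called largest at ZT6, defined below, the shares were alike in both directions. They were 12.0% for those higher (133 of 199 matched) and 12.6% for those lower (127 of 187 symbols matched). The cyclic AMP element TGACGTCA was in 1 clock promoter (4.55% against 1.79%), and GAANNTTC, a heat shock element core, in none (7.86% of all). Different motifs overlapped in 10 of all promoters (0.0304%). A match is a run of letters and shows neither binding nor use.

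Outside the clock list, genes with a low adjusted p in the same comparison were Clpx, Lgalsl and Saa3, with higher effects in females, and Camta1, with a lower one. Clpx (chr9:65294260-65330658), the chaperone subunit of a mitochondrial protease that also acts in haem synthesis, measured 151 and 131 CPM in convR females, 348 and 393 CPM in GF females, 175 and 210 CPM in convR males and 98.8 and 122 CPM in GF males. The sexes moved apart without overlap, by 2.12 ± 0.27 (edgeR adjusted p = 1.47e-05). Lgalsl, a galectin-like gene, differed by 2.11 ± 0.29 (edgeR adjusted p = 5.21e-05). Camta1, a calcium-responsive transcription factor gene whose span on the same strand contains the whole of Per3, differed by -3.05 ± 0.30, and reads of the 2 genes may not be separable. All 9 genes named by low adjusted p here (Arntl, Clpx, Lgalsl, Saa3, Wee1, Per3, Dbp, Camta1 and Tef) passed in every fit that left out a ZT6 library. The number of genes that passed over all genes was 222 without convR male 1, 255 without GF female 1, 396 without convR female 2, 436 without convR male 2, 468 without GF male 2, 1105 without GF female 2 and 2669 without GF male 1.

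Acute phase genes, which the liver switches on in inflammation, also had effects that differed between the sexes, and several of them were highest in convR males. Saa1 (serum amyloid A) measured 991 and 1705 CPM in convR males, 69.9 and 21.7 CPM in GF males, 12.9 and 15.0 CPM in convR females and 53.2 and 29.5 CPM in GF females. Both convR males were above all 6 other libraries, and the female minus male difference was 6.41 ± 1.25 (edgeR adjusted p = 0.00306). Saa3 measured 8.93 and 53.4 CPM in convR males, 1.33 and 1.54 CPM in GF males, 1.95 and 1.83 CPM in convR females and 10.8 and 2.66 CPM in GF females, a difference of 6.24 ± 0.85 (edgeR adjusted p = 4.07e-05). Of 22 acute phase genes 9 had a higher effect in females (background 1.88%), namely Saa1, Saa2, Saa3, Orm1, Orm2, Hp, Hpx, Lcn2 and Itih3, and the median of the list was 0.681. The count was 5 without GF female 1 or without GF male 2, 14 without GF male 1 and 2 in the 8 libraries alone. Markers of other cells moved with it, with higher effects in females for 3 of 12 Kupffer cell markers (Vsig4, Lyz2 and Cd68) and for 2 of 6 tested neutrophil markers (S100a8 and S100a9). The summed neutrophil and monocyte markers were 6.76 to 9.10 CPM in convR libraries, 5.24 and 2.39 CPM in GF males and 8.47 and 8.79 CPM in GF females. No marker of these lists was at 0 in all 8 libraries, and the part of these markers in the result was not tested. Reads of the Saa and Orm paralogs may be shared between members.

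In the fit of the 8 ZT6 libraries alone, with sex as a covariate, few genes differed between GF and convR in both sexes together. The edgeR test passed 3 of 16676 genes (0.018%), all lower in GF, with 1662 genes at an unadjusted p under 0.05, and DESeq2 passed 266. Hist1h4m, a histone H4 gene of the clustered Hist1 family, was the 1 of these that the naming rule allowed, which takes only genes whose groups do not overlap. It measured 1.64, 2.31, 2.62 and 2.90 CPM in convR libraries and 0.178, 0.134, 0.061 and 0.128 CPM in GF libraries. The effect on Hist1h4m was -4.10 ± 0.35 (edgeR adjusted p = 0.0106). Without GF male 2 no gene passed by edgeR, with 1683 at an unadjusted p under 0.05, and without GF female 2, 33 did. The CPM of the 4 GF libraries lay wholly above the 4 convR libraries for 191 genes (1.15%) and wholly below for 530 (3.18%). These CPM were not scaled by TMM, and the share expected by chance was not computed. With scaling to library size alone the median effect over all genes was -0.05, against 0.015 with TMM. The part of scaling in these 2 counts was not tested.

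With the spread taken from all 48 libraries, the ZT6 effect averaged over the sexes passed for 1141 of 17867 genes (6.39%), 478 higher (2.68%) and 663 lower (3.71%). The same fit passed 494 genes at ZT2 (2.76%), 441 at ZT10 (2.47%), 1024 at ZT14 (5.73%), 1355 at ZT18 (7.58%) and 1172 at ZT22 (6.56%). At ZT6 it passed 858 genes in females (4.80%) and 1124 in males (6.29%). The genes of this fit named below were taken by the same rule after their values had been seen. As that rule takes only genes whose GF and convR libraries do not overlap, their separation was fixed by the choice.

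The strongest effect by adjusted p shared by the sexes was on Cyp3a11 (chr5:145854426-145879964), the main bile acid and drug hydroxylase under the receptor PXR. It measured 3610 and 3725 CPM in convR males and 3734 and 2840 CPM in convR females, against 152 and 81.9 CPM in GF males and 912 and 1339 CPM in GF females. All GF libraries were lower, by -3.21 ± 0.25 on the log2 scale (edgeR adjusted p = 2.65e-09), and the effect was larger in males, at -4.88 against -1.53 in females (edgeR adjusted p of the difference = 6.26e-05). Against the other 5 times it did not differ at ZT6, with 0.06 ± 0.25 (edgeR adjusted p = 0.941). Csad, an enzyme on the way from cysteine to taurine, measured 465, 275, 232 and 178 CPM in convR and 23.9, 42.0, 55.4 and 30.2 CPM in GF libraries. It was lower by 2.81 ± 0.40 (edgeR adjusted p = 0.000152). The other genes named as lower were Cib3, Dct, Wfdc2, Cxcl14 (a chemokine), Serinc2, Med12l, Cd276 (a B7 family ligand), Col15a1 (a basement membrane collagen) and H60b, with effects from -2.27 for Cib3 to -1.57 for H60b. Of 26 CAR and PXR targets 6 were lower (background 3.71%), the others being Cyp3a25, Cyp2c55 and the carboxylesterases Ces2a, Ces2b and Ces2c, and 1 was higher, Cyp2b9, with both convR males at 0 counts.

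Of the genes named as higher, Sult1e1, the oestrogen sulfotransferase, had the largest effect, at 6.67 ± 1.32 (edgeR adjusted p = 0.00334). It measured 0.130, 0.0222, 0.231 and 0.131 CPM in convR libraries and 9.41, 0.840, 47.4 and 1.79 CPM in GF male 1, GF male 2, GF female 1 and GF female 2. In both sexes the library numbered 1 was the higher one. Serpina7, the thyroxine-binding globulin, measured 496 CPM in GF female 1 and 68.1 to 139 CPM in the other GF libraries, against 11.5 to 64.3 CPM in convR, an effect of 2.74 ± 0.64 (edgeR adjusted p = 0.0108). Got1, a cytosolic aspartate aminotransferase, was 1.40 ± 0.25 higher (edgeR adjusted p = 0.00157). The remaining 9 were Adcy1, Alas1, Inhbb, Cacna1d, Slc41a3, Col5a2, Pprc1, Ppp1r10 and Fbln2, with effects from 2.09 for Adcy1, an adenylate cyclase, to 0.99 for Fbln2, a matrix protein.

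Among the lists in the same fit, lipogenesis was lower for 7 of 18 genes (background 3.71%), with a median of -0.869 against 0.0059 over all genes: Mlxipl, the carbohydrate-sensing factor ChREBP, Scd1, Me1, Elovl6, Pnpla3, Thrsp and Gpam. PPARalpha targets were higher for 5 of 29 (background 2.68%), Cpt1a, Acot3, Acot4, Cyp4a14 and Cd36, with a median of 0.107. The metallothioneins Mt1 and Mt2 were higher by 2.77 and 3.35, as were Fkbp5 and Errfi1 of the same list of 11. Of the 14 genes listed for taurine and sulfur amino acids, Cbs, Mat1a and Ahcy were higher and Csad lower. Sult1e1, a sulfotransferase placed in the same list, was also higher. Of 12 growth hormone and STAT5 genes Socs2, Cish, Cux2 and Onecut1 were higher and Ghr, the receptor, lower; Socs2 measured 109 and 129 CPM in GF females and 14.03 to 20.5 CPM in the other 6 libraries. Male-biased liver genes were lower for 5 of 26, with a median of -1.03, and female-biased ones higher for 5 of 26, with a median of 0.495. Proliferation genes were lower for 2 of 19, the replication helicase subunits Mcm2 and Mcm6, with a median of -0.815. The median of this list at the other times was alike, at -0.81, and none of its genes passed for a difference between ZT6 and those times.

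Against the mean of the other 5 times, the ZT6 effect differed for 630 of 17867 genes (3.53%), 302 higher (1.69%) and 328 lower (1.84%). In 535 of the 630 the effect at ZT6 and the mean effect at the other times had opposite signs. In 618 the difference had the same sign in both sexes, and 334 also passed for the ZT6 effect itself. The 630 were called on this difference, averaged over the sexes. That choice favours both the opposite signs and the like signs in the sexes. The shares of these over all genes tested were not computed, so the counts show neither a reversal nor agreement of the sexes. Of the 630, 387 (2.17% of genes tested) were largest at ZT6, 199 of them higher (1.11%) and 188 lower (1.05%). In these the ZT6 effect had the sign of the difference and exceeded in size that of each other time. The count of 630 was 22 without convR male 2, 64 without convR female 2, 74 without GF male 2, 172 without GF female 1 and 2802 without GF male 1; without the 3 libraries high in Nnt it was 1063; without ZT22 it was 316 and without ZT14, 328. It therefore rested on single libraries, and the genes below are given with their own values.

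Alas1 (chr9:106233455-106248654), the rate-limiting enzyme of haem synthesis, had the lowest adjusted p of those higher at ZT6. It measured 79.0 and 49.8 CPM in convR males, 203 and 332 CPM in GF males, 113 and 82.7 CPM in convR females and 243 and 203 CPM in GF females. Every GF library was above every convR library at ZT6. The effect was 1.68 ± 0.34 at ZT6 and -0.98 as the mean of the other times, a difference of 2.66 ± 0.37 (edgeR adjusted p = 0.000632) that was 2.44 in females and 2.89 in males. It passed without each ZT6 library in turn, with values from 2.46 to 2.84. In convR livers ZT6 was the trough of Alas1, with means of 134 to 1185 CPM at the other times, and GF means there ran from 44.5 to 1267 CPM. Overlapping antisense transcripts are annotated at this gene.

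The other 8 genes named as higher at ZT6 had smaller differences, from 0.53 ± 0.10 for Helb, a DNA helicase, to 1.34 ± 0.26 for Pprc1, a coactivator of mitochondrial biogenesis related to PGC-1 (edgeR adjusted p = 0.00826). Pprc1 measured 4.56, 3.98, 4.06 and 2.77 CPM in convR and 5.77, 11.6, 7.01 and 7.53 CPM in GF libraries. Its groups did not overlap, and GF male 2 was the highest. The rest were Rdh13 (a mitochondrial retinol dehydrogenase, 0.80), Ttc30a1 (a cilium transport gene, 0.97), Akap17b (0.86), Rilpl2 (0.71), Gtf2e1 (a subunit of the basal factor TFIIE, 0.82) and Gemin4 (of the SMN complex, 0.62). Without convR male 2 the edgeR adjusted p of all 8 rose to between 0.0581 and 0.0767, past the threshold. For Gtf2e1 the same held without convR female 2, and for Pprc1 and Gemin4 without convR female 2 or GF male 2. Exons of Gemin4 are shared with its neighbours in the annotation.

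**Figure D3:**
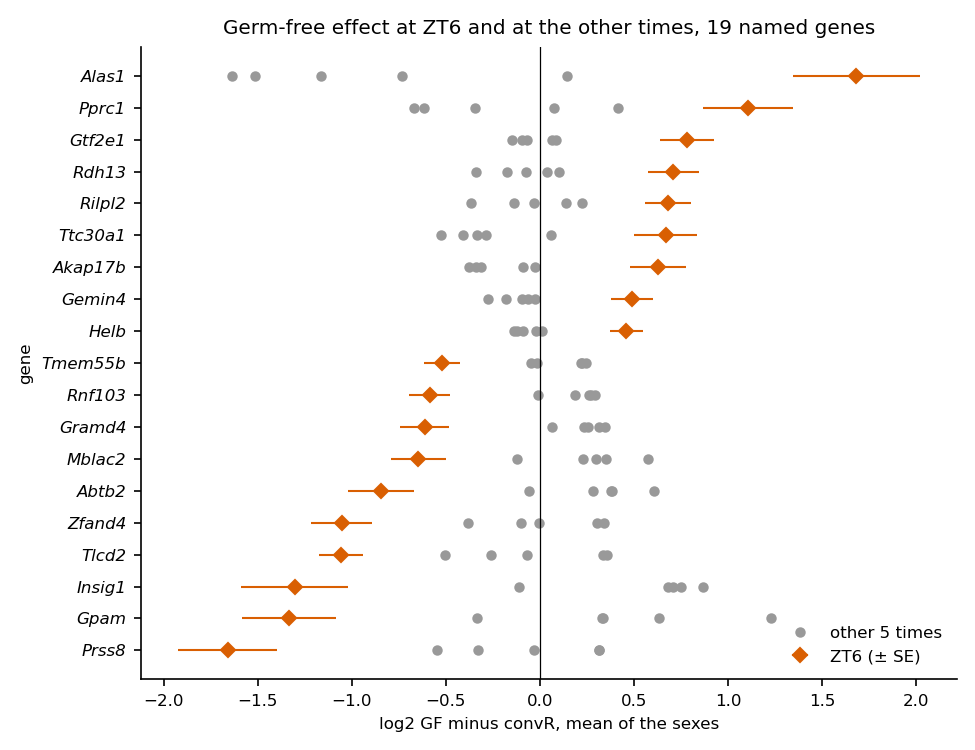
Germ-free effect (log2 GF minus convR, mean of the sexes) of the 19 named genes at ZT6, as diamonds with 1 SE, and at each of the other 5 times, as grey points. Alas1 stands at 1.68 at ZT6 with a mean of -0.98 elsewhere, and Tlcd2 at -1.06 with a mean of -0.03.

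Among genes lower at ZT6, Tlcd2 (chr11:75461715-75470899), a membrane lipid regulator, had the lowest adjusted p of all genes. It measured 187 and 216 CPM in convR males, 109 and 104 CPM in GF males, 143 and 194 CPM in convR females and 57.9 and 79.2 CPM in GF females. The 4 GF libraries were below the 4 convR libraries, and the difference from the other times was -1.03 ± 0.13 (edgeR adjusted p = 0.000142), with -1.07 in females and -0.99 in males. Gpam (chr19:55067268-55127238), the mitochondrial acyltransferase that starts glycerolipid synthesis, measured 283, 533, 412 and 578 CPM in convR libraries, 246 and 234 CPM in GF males and 92.3 and 156 CPM in GF females. Again the groups did not overlap, and GF females were lowest, with a difference of -1.77 ± 0.28 (edgeR adjusted p = 0.00206). Insig1 (chr5:28071363-28078662), which retains SREBP in the endoplasmic reticulum and is itself an SREBP target, measured 592 and 830 CPM in convR males, 550 and 307 CPM in GF males, 1453 and 1239 CPM in convR females and 154 and 546 CPM in GF females. Its difference was -1.88 ± 0.31 (edgeR adjusted p = 0.00217), -2.16 in females and -1.61 in males.

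The other 7 were Rnf103 (an endoplasmic reticulum ubiquitin ligase, -0.79), Tmem55b (a lysosomal phosphoinositide phosphatase, -0.65), Zfand4 (-1.09), Gramd4 (-0.86), Abtb2 (-1.17), Mblac2 (-0.91) and Prss8 (a membrane serine protease, -1.61). The sexes contributed unevenly for Abtb2, with -0.25 in females and -2.08 in males, and for Prss8, with -2.81 in females and -0.40 in males. Of the 10 genes named as lower, 9 passed without each ZT6 library in turn, and Prss8 was lost without convR male 2 (edgeR adjusted p = 0.0547). Of the 19 genes named in this comparison 10 passed throughout, the 9 lower ones and Alas1.

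**Figure D4:**
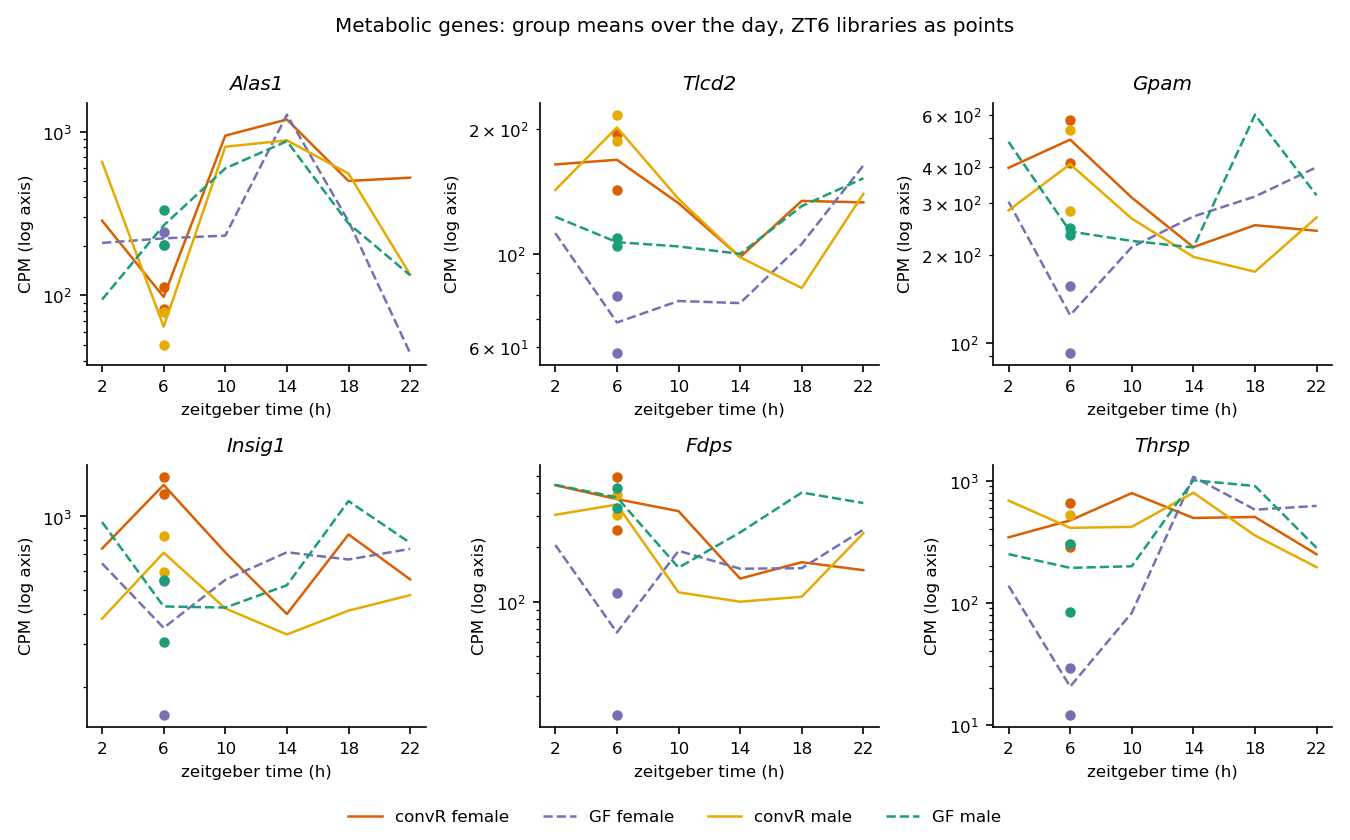
Mean CPM (log axis) of Alas1, Tlcd2, Gpam, Insig1, Fdps and Thrsp at the 6 zeitgeber times for the 4 groups; lines join the means of 2 libraries and the points at ZT6 are single libraries. At ZT6 convR livers are at the trough of Alas1 and at the peak of Tlcd2 and Gpam, and GF females are lowest for Thrsp, at 11.9 and 29.1 CPM.

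Genes of cholesterol synthesis moved together against the other times. All 23 measured genes of the list had a difference below 0, with a median of -1.15 against 0.006 over all genes tested, and 12 passed, all lower (background 1.84%). The median effect of the list was -0.614 at ZT6 and 0.532 at the other times. By time it was 0.222 at ZT2, 0.135 at ZT10, 0.776 at ZT14, 1.01 at ZT18 and 0.708 at ZT22, so higher GF levels in the dark phase were part of the difference. For the ZT6 effect itself 3 of 23 passed as lower (background 3.71%), and 3 were called largest at ZT6. Among the 12 were Hmgcs1 (-1.52), an early enzyme, Pmvk (-1.15), Fdps (-1.63), Fdft1 (-1.42) and Lss (-1.35) of the way to lanosterol, Ebp (-0.56), Sc5d (-1.45), Dhcr7 (-1.34) and Tm7sf2 (-0.65) of the steps after it, Acat2 (-0.89) and Insig1. Fdps, which makes farnesyl diphosphate, measured 303 and 389 CPM in convR males, 333 and 427 CPM in GF males, 248.6 and 494 CPM in convR females and 23.4 and 111 CPM in GF females. The groups overlapped in males and were apart in females, and the female minus male difference at ZT6 was -2.71 ± 0.73 (edgeR adjusted p = 0.0298), a call that was lost in 5 of the 8 fits that left out a library. The list count of 12 was 1 without convR male 2, 2 without convR female 2, 2 without GF male 2, 3 without GF female 1 and 23 without GF female 2; against ZT2 and ZT10 only it was 1, without ZT14 or without ZT22 it was 6, without the 3 libraries high in Nnt 23, and with DESeq2 19. In females alone it was 8 and in males alone 0 by edgeR, with 11 at an unadjusted p under 0.05.

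Lipogenesis showed the same sign, with all 18 genes below 0 and a median of -0.897. Of these 4 passed, Acly (-1.51), which makes cytosolic acetyl-CoA, Fads2 (-0.66), Thrsp (-2.67) and Gpam, which kept the call in 2, 2, 5 and 8 of the 8 fits that left out a ZT6 library. Thrsp, a thyroid hormone and carbohydrate responsive gene, measured 301 and 522 CPM in convR males, 84.5 and 302 CPM in GF males, 286 and 660 CPM in convR females and 11.9 and 29.1 CPM in GF females. Both GF females were below all other libraries, and male values overlapped. The count of 4 was 1 without convR female 2, convR male 2 or GF female 1, 2 without GF male 2 and 7 without GF female 2, and 2 with scaling to library size alone. Against ZT2 and ZT10 only it was 1, which was also the 1 gene at an unadjusted p under 0.05, and the median effect of the list was -0.629 at ZT10 beside -0.869 at ZT6. It was 1 without ZT22, 2 without ZT14, 7 without ZT2, 9 without the 3 libraries high in Nnt, 10 with DESeq2 and 2 with a replicate block. In females alone it was 7 and in males alone 0 by edgeR, with 4 at an unadjusted p under 0.05. Between the sexes at ZT6, 7 of 23 cholesterol genes and 6 of 18 lipogenesis genes had a lower effect in females (background 2.17%), with medians of -1.72 and -1.82. By edgeR both counts were 0 without convR male 1, with 16 and 10 genes at an unadjusted p under 0.05, and 0 without GF female 1, with 12 and 10. They were 1 and 2 without convR female 2, 4 and 3 without convR male 2, 8 and 1 without GF male 2, 22 and 6 without GF female 2, 9 and 3 without convR female 1, and 5 and 8 without GF male 1.

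**Figure D5:**
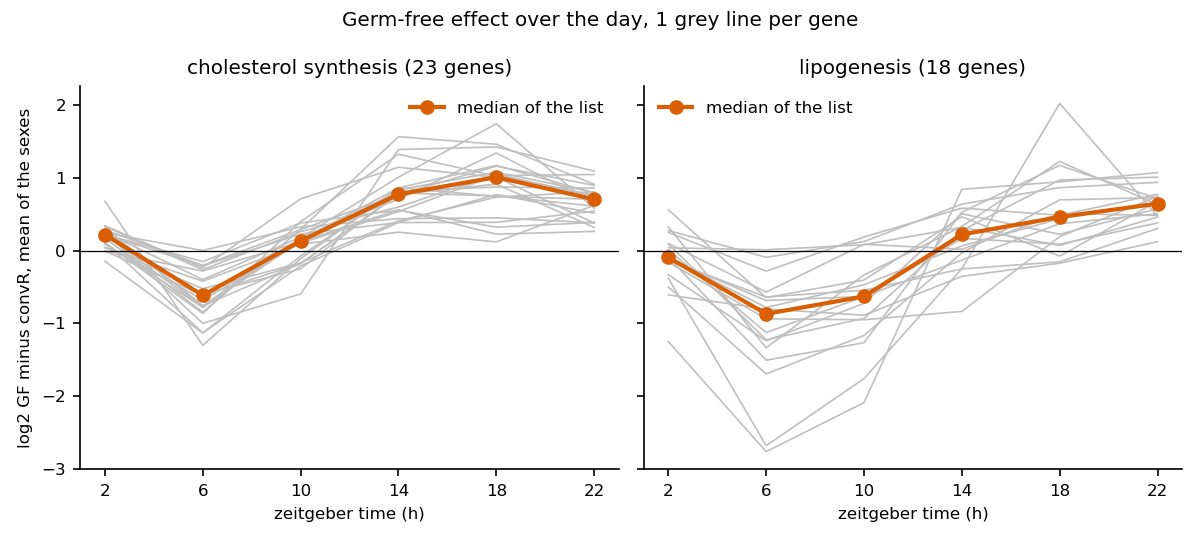
Germ-free effect (log2 GF minus convR, mean of the sexes) over the 6 zeitgeber times for the 23 cholesterol synthesis and 18 lipogenesis genes; grey lines are genes and the heavy line is the list median. The cholesterol median is lowest at ZT6 (-0.614) and highest at ZT18 (1.01), and the lipogenesis median is lowest at ZT6 (-0.869) and highest at ZT22 (0.649).

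Over the other 21 pathway lists 16 of 382 tested entries passed against the other times (4.19%), close to the background of 3.53% over all genes, and the genes below are given singly. In the clock list Per3 and Dbp passed as lower, at -1.39 and -1.38, and both went the other way in males, at 1.68 and 2.69; leaving out single ZT6 libraries kept their calls in 6 and 3 of 8 fits. Hfe2 (hemojuvelin, which raises hepcidin) was lower by -0.74 ± 0.12 (edgeR adjusted p = 0.00207) and passed without each ZT6 library in turn. Of 50 genes followed through the 8 fits that each left out a ZT6 library, 11 passed in all of them, Hfe2 and the 10 named above, and 23 were lost in 4 or more. The genes that follow were all lost in at least 3 of the 8 fits.

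Of the growth hormone list Onecut1 (2.36) and Cux2 (2.08), transcription factors, passed as higher and Ghr (-0.44) as lower; they kept the call in 5, 1 and 3 of the 8 fits. Cux2 measured 25.03 CPM in GF male 1 and 0.495 to 1.29 CPM in the other 3 males, and 21.5 to 50.8 CPM in females, and without GF male 1 its difference was 0.0216 (edgeR adjusted p = 1.0). Errfi1, an inhibitor of EGF receptor signalling (0.98), and Pfkfb3, which makes an activator of glycolysis (0.97), passed as higher and kept the call in 2 of the 8 fits each; Pfkfb3 was at -0.015 in females alone. Lower was Pdk4, which shuts pyruvate dehydrogenase (-1.23), with the call kept in 3 fits and a difference of 0.19 in females alone. Of the urea cycle Otc (-0.40) kept it in 2 and Ass1 (-0.73) in 4, and Slc6a12, a betaine transporter (-0.74), in 5. Of bile acid genes Slc27a5 (-0.32) kept it in 2, and Akr1d1 (-0.70), both of synthesis, and Slc10a1, the uptake carrier (-0.71), in 4 each.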

How the data were processed

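The values are raw counts of exonic reads as the authors deposited them, 1 table per sex, each with 38087 genes; 0 columns of sample values went unused. The submitters' processing notes name STAR 2.4.0i and mm10. A stranded kit was used on total RNA depleted of ribosomal RNA, per the labels' protocols. Which tool counted reads, and how it treated strand and multiple matches, is not given in the sources used here; close paralogs (Saa, Orm, Hist1, Cyp3a, Cyp2b, Ces2, Mup) and genes with overlapping exons (such as Dbp with Sphk2, Prss8 with Kat8, Med12l with Igsf10, Tlcd2 with Mir22hg) are therefore uncertain. Gene coordinates come from GENCODE M21 (GRCm38), in which 36308 identifiers were found.

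Counts were scaled by TMM and tested with edgeR 4.0.16 (limma 3.58.1, R 4.3.3), using the quasi-likelihood F test after filterByExpr (count minimum 10, total minimum 15), with Benjamini-Hochberg adjusted p-values over all genes tested and a threshold of 0.05. The ZT6 effect was fitted in the 8 ZT6 libraries with sex as a covariate (5 residual degrees of freedom). ZT6 against the mean of the other 5 times, and females minus males at ZT6, were fitted in all 48 libraries with 1 mean per cell of sex, status and time (24 residual degrees of freedom). Log2 fold changes are given ± SE. This SE was derived from the test, as the size of the log2 fold change divided by the square root of its F statistic. CPM used total counts. Both fits were tested on simulated data first.

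Named genes were, for the ZT6 effect, the 12 highest and 12 lowest with adjusted p under 0.05, mean log2 CPM of at least 0 and groups that do not overlap; against the other times, the 10 lowest adjusted p in each direction among genes largest at ZT6; by sex, the 5 lowest in each direction. Gene models without an established symbol were counted and not named, and members of the lists could be named with their list. Some genes that the rule or a list would name are not reported here. The members and lists were chosen with earlier results of these data known. Of 545 list entries 535 were found. Alternatives were DESeq2 1.42.0, other scalings, no filter, single sexes, fewer times, a replicate block and leaving out libraries.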

Additional observations from a re-analysis of the deposited data

Results flagged for a closer look

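The effect at ZT6 differed from that at the other 5 times for 630 genes and between the sexes at ZT6 for 723 genes, each by the test of the difference itself. Against the other times the log2 differences of the named genes were 2.66 for Alas1, 0.53 for Helb, 0.80 for Rdh13, 0.97 for Ttc30a1, 0.86 for Akap17b, 0.71 for Rilpl2, 0.82 for Gtf2e1, 1.34 for Pprc1 and 0.62 for Gemin4. Those of the genes lower at ZT6 were -1.03 for Tlcd2, -0.79 for Rnf103, -1.77 for Gpam, -0.65 for Tmem55b, -1.09 for Zfand4, -0.86 for Gramd4, -1.17 for Abtb2, -1.88 for Insig1, -0.91 for Mblac2 and -1.61 for Prss8. Between the sexes (female minus male) they were 4.81 for Arntl, 2.12 for Clpx, 6.24 for Saa3, 2.11 for Lgalsl, -4.83 for Wee1, -6.25 for Per3, -7.38 for Dbp, -3.05 for Camta1 and -3.13 for Tef.

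In 7 of 230 groups of 4 ZT6 libraries (3.04%), 1 library lay far from the other 3 by Dixon's 95% criterion, where chance flags about 1 in 20 groups. The Cyp3a11 value of 2840 CPM was the lowest of the convR group, in convR female 2. The Hpx value of 8155 CPM and the Serpina7 value of 496 CPM were the highest of the GF group, both in GF female 1, as were 10.8 CPM of Saa3 and 1.62 CPM of Wfdc2. Among convR libraries, 2.18 CPM of Npas2 and 53.4 CPM of Saa3 stood above the rest, both in convR male 2.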

How the results depend on the processing

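The ZT6 count of 3 genes in 8 libraries was 1141 in the 48-library fit, where it was 858 for females and 1124 for males, 266 with DESeq2, 869 with no filter, 15 with library size scaling, 12 with robust dispersions, 5 with a mean per cell, 1 without both GF libraries numbered 2, and 0 to 33 when single libraries were left out. The count of 630 against the other times (47.9% higher) was 1087 with DESeq2, 1376 with no filter, 191 in males alone, 234 against ZT2 and ZT10 only (72.2% higher), 1063 without the 3 libraries high in Nnt, 328 without ZT14 and 316 without ZT22, and 22 to 2802 when single libraries were left out. Library size scaling gave 645, of which 77.5% were higher, with the median of all genes at 0.077. Without both GF libraries numbered 2 it was 572, 248 of them among the 630, and 27.8% were higher. The count of 723 between the sexes (46.5% higher) was 1141 with DESeq2, 1434 with no filter, 40 in the 8 libraries alone, 676 with library size scaling (62.1% higher) and 222 to 2669 when single libraries were left out.

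Whether samples of the same replicate number are paired is not given by the labels, and the values do not settle it. Over 12 pairs the correlation of deviations ran from -0.225 to 0.283, with 4 above 0.1 and 1 under -0.1. At ZT6 it was 0.154 in females and -0.025 in males. A replicate block gave 5, 377 and 604 genes for the 3 comparisons. Signs reversed for Dbp and Per3 in males alone (2.69 and 1.68), for Lgalsl, Pdk4 and Pfkfb3 in females alone (0.81, 0.19 and -0.015) against the other times, and for Socs2 at ZT6 in males alone (-0.030); the cause was not tested. Of 720 values for 45 genes between the sexes under 16 settings, 611 kept direction and side of the threshold and 109 lost the call. Against the other times 867 of 1200 kept both and 328 lost the call, and at ZT6 503 of 665 kept both, 152 gained and 9 lost it. With 2 libraries per cell, their small number limits the precision of every test.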
